A study of Mus musculus with 25 samples.

Results

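Retinoid metabolism genes are described here in white fat of wild type and *Acod1*-/- mice, as 9 named genes chosen by symbol among the 54752 gene IDs counted in every library. They are *Rdh10* and *Dhrs3*, which interconvert retinol and retinal, *Aldh1a1*, *Aldh1a2* and *Aldh1a3*, which oxidize retinal to retinoic acid, *Retsat*, a retinol saturase, *Stra6*, the membrane receptor through which cells take up retinol from its plasma carrier, and *Crabp1* and *Crabp2*, which bind retinoic acid in the cytoplasm. By GENCODE on build GRCm38 they lie at chr4:144892827-144928209 (*Dhrs3*), chr1:16105774-16133734 (*Rdh10*), chr19:20492715-20643465 (*Aldh1a1*), chr9:71215789-71296243 (*Aldh1a2*), chr7:66390890-66427517 (*Aldh1a3*), chr6:72598475-72608425 (*Retsat*), chr9:58063788-58153996 (*Stra6*), chr9:54764748-54773110 (*Crabp1*) and chr3:87948666-87953376 (*Crabp2*). Vitamin A reaches tissues as retinol bound to RBP4. A dehydrogenase such as RDH10 oxidizes it reversibly to retinal, DHRS3 reduces retinal back to retinol, and the ALDH1A enzymes make retinoic acid, which acts through the nuclear receptors RAR and RXR. In adipose tissue retinoic acid is known to restrain adipocyte differentiation, and *Dhrs3* is a known retinoic acid-induced gene.

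The study fed male C57BL/6N mice and sequenced RNA of epididymal (eWAT) and inguinal (iWAT) white adipose tissue. Wild type mice on normal chow diet (ND) gave 4 eWAT and 3 iWAT libraries, wild type mice on high-fat diet (HFD) 5 and 5, and *Acod1*-/- mice on HFD 5 and 3. The HFD, with 60% of calories from fat, began at 5 weeks of age and lasted 16 weeks, although the labels of iWAT *Acod1*-/- HFD libraries 2 and 3 give 17 and 18 weeks. *Acod1* encodes the enzyme that makes itaconate, and the deletion is present in every cell of the body, so the groups do not tell an effect within fat from one elsewhere. Wild type and *Acod1*-/- mice of the genotype comparison were littermates, and the samples include no *Acod1*-/- mice on ND. The ND libraries are labelled 16 weeks. The labels number the libraries of a group, and the study describes them as separate mice of a single experiment, so p-values within a depot measure the spread between mice. Whether eWAT and iWAT libraries came from the same mice is not stated, and tests across depots treat all libraries as separate.

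Libraries held 31.41 to 52.34 M reads on genes (M, 10 to the power 6) with a median of 42.09 M. Summed adipocyte markers (8 genes, among them *Adipoq* and *Plin1*) lay between 20140 and 51130 CPM (reads scaled to a common library size) in all libraries, and none of the 8 was at or under 3 reads throughout a group. *Acod1* itself had at most 9 reads in any library, so its reads do not check the genotype labels. Of the other markers, summed macrophage markers (9 genes) were 469 to 910 CPM in eWAT of ND-fed wild type mice, 2072 to 6203 in HFD-fed wild type mice and 471 to 1776 in *Acod1*-/- mice on HFD, and all 9 were called higher and then lower in those steps. The 3 iWAT ND libraries stood apart by lymphocyte markers (405 to 618 CPM against at most 43.98 in other iWAT libraries). Epididymis markers reached 7777 CPM in eWAT ND library 2 and 1067 in eWAT *Acod1*-/- library 5, and skin markers 2133 CPM in iWAT *Acod1*-/- library 2. Skeletal muscle markers reached 6801 CPM in iWAT ND library 1, which was kept where libraries of high epididymis or skin markers were left out. All ND libraries and 1 library of each HFD group carry one number series in the file headers and the remaining HFD libraries the other. What the series are is not stated, and diet and series overlap largely. In the fit of a depot, a series term is thus set by 1 library of each HFD group against the others of its group. In whole tissue, fewer cells of a type and less RNA per cell cannot be told apart.

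*Dhrs3* and *Aldh1a1* were the members whose levels were called different both between diets and between genotypes in eWAT, and the bases just before their annotated starts are shown for this reason. The sequences are from RefSeq, build GRCm38.p6, + strand, in lower case. The table has 3 starts of *Dhrs3*, of which the first is shown (chr4:144892577-144892826), while the window of the later ones (chr4:144892911-144893076) lies within the gene, and *Aldh1a1* has a start at the beginning of the gene (chr19:20492333-20492582) and another further in (chr19:20601718-20601960).
Dhrs3: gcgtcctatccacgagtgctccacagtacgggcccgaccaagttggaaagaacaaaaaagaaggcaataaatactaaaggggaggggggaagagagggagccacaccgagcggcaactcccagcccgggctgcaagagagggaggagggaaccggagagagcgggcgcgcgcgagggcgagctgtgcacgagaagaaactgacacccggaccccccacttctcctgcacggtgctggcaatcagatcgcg
Aldh1a1, first start: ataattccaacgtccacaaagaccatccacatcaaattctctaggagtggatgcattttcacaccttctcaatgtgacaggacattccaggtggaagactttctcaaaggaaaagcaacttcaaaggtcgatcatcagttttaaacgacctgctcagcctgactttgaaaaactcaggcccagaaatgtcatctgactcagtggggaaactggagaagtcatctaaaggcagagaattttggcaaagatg
Aldh1a1, second start: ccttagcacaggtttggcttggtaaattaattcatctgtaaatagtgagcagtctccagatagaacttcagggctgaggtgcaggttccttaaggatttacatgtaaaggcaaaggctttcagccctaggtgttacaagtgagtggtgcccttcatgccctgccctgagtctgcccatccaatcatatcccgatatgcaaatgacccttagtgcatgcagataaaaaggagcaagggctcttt
None of these windows, the later one of *Dhrs3* included, held AGGTCA or AGTTCA on either strand. These are forms of the half-site that RAR and RXR are known to bind. Other forms were not searched singly, and the second *Aldh1a1* window holds GGGTCA on the - strand. In 32851 promoters of the table, counting the 250 bases before each start, 14.0% held AGGTCA and 11.8% held AGTTCA. Of 12 promoters matched to 6 members, 0 held AGGTCA and 1, of *Retsat*, held AGTTCA. *Aldh1a3*, *Crabp2* and *Rdh10* were the members with no entry.

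Within eWAT of wild type mice, HFD went with more *Dhrs3*, *Aldh1a2* and *Aldh1a3* and less *Aldh1a1*, *Retsat* and *Rdh10*. A gene was called when its adjusted p was under 0.1 in edgeR's quasi-likelihood test over all genes of at least 1 CPM on average. All 6 members that passed this filter were called, 3 higher and 3 lower, where 51.8% of 14936 genes were called (24.8% higher and 26.9% lower). Members and lists were chosen with earlier results of these data known, so shares given here and below describe them and test nothing. Of all 9 members 6, *Stra6* among them, had diet groups that did not overlap in CPM, which held for 17.2% of genes upward and 18% downward. Here and below such shares cover only genes that passed the filter, while the 9 include members that did not. *Stra6*, *Crabp1* and *Crabp2* did not pass and are given by reads further on. Without the filter *Aldh1a3* (adjusted p = 0.124) and *Rdh10* (adjusted p = 0.150) were not called. Markers of other cell types moved in the same comparison. Progenitor and fibroblast markers (5 of 7 higher, 1574 to 1963 CPM on ND and 2275 to 3275 on HFD) rose with the macrophage markers, endothelial (4 of 5), mesothelial (4 of 8), epithelial (4 of 5) and epididymis markers (3 of 6) fell, and of the adipocyte markers 1 of 8 was called higher and 3 lower. Liver markers, a list chosen after its values were seen, were also called higher (6 of 6). The part of all these markers in the members' differences was not tested. The median log2 fold change of the 6 members tested was 0.23, against -0.04 for all genes tested.

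*Dhrs3*, the retinal reductase, was at 77.8, 66.1, 69.3 and 52.7 FPKM (fragments per kilobase of transcript, scaled to the reads counted in the library) in the 4 ND libraries of eWAT and at 147, 106, 102, 127 and 109 in the 5 wild type HFD libraries. Every HFD library was above every ND library. The mean rose from 66.5 ± 10.4 (SD, n = 4) to 118 ± 18.8 FPKM (n = 5), a log2 fold change of 0.87 ± 0.14 (SE, adjusted p = 0.000806). With the header series as a term in the fit it was 0.78 (adjusted p = 0.0147). In *Acod1*-/- mice on HFD, *Dhrs3* stood at 71.2, 90.6, 75.0, 91.8 and 79.6 FPKM. These 5 lay below all wild type HFD libraries in FPKM, although on the TMM-scaled CPM used by the test library 2 reached 320 and so overlapped the wild type range of 293 to 397. The genotype difference was -0.44 ± 0.13 on the log2 scale (adjusted p = 0.0495).

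In iWAT the same gene stood at 53.0, 56.8 and 41.1 FPKM on ND, at 88.5, 77.5, 71.7, 91.4 and 79.2 on HFD in wild type mice and at 67.7, 76.6 and 63.8 in *Acod1*-/- mice. The diet groups did not overlap, and the rise was 0.88 ± 0.12 (adjusted p = 0.000316, and 0.81 with the series term, adjusted p = 0.00468). The *Acod1*-/- range overlapped that of wild type HFD mice, with a difference of -0.23 ± 0.11 (adjusted p = 0.338). The diet response of *Dhrs3* differed between depots by 0.03 ± 0.19 (adjusted p = 0.945). By mean level the order was eWAT wild type HFD (118 FPKM), then iWAT wild type HFD (81.7), eWAT *Acod1*-/- (81.6), iWAT *Acod1*-/- (69.4), eWAT ND (66.5) and iWAT ND (50.3), and only the first step separated neighbours whose libraries did not overlap.

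*Rdh10*, the retinol dehydrogenase that works against *Dhrs3*, was far lower, with group means of 2.96 to 4.30 FPKM. Its eWAT values were 3.94, 3.69, 3.6 and 4.69 FPKM on ND and 3.22, 3.20, 2.41, 2.94 and 3.03 on HFD. All HFD libraries lay below all ND libraries. The log2 fold change was -0.40 ± 0.16 (adjusted p = 0.0544), and the call was lost with the series term (-0.49, adjusted p = 0.118). In *Acod1*-/- eWAT the gene stood at 3.15, 2.89, 4.62, 3.42 and 2.83 FPKM, overlapping both other groups, at 0.28 ± 0.15 against wild type HFD (adjusted p = 0.233). Between the diets of iWAT its difference was -0.12 ± 0.19 (adjusted p = 0.632), and neighbours in its order of groups all overlapped.

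Taken as a share of the summed FPKM of *Rdh10* and *Dhrs3* within a library, which does not depend on library scaling, *Rdh10* made up 4.82% to 8.18% in eWAT on ND, 2.14% to 2.92% on HFD and 3.10% to 5.80% in *Acod1*-/- mice. Neither step had overlapping libraries. The mean share was 5.80% ± 1.59 (SD, n = 4), 2.47% ± 0.335 (n = 5) and 4.03% ± 1.07 (n = 5), and for both diet and genotype the two-sided exact permutation p was 0.00794, the smallest these group sizes allow (0.0159 adjusted over 8 share tests). In iWAT the share was 7.87% ± 0.282 (n = 3) on ND and 4.14% ± 0.671 (n = 5) on HFD (exact permutation p = 0.0179, again the smallest possible, adjusted 0.0286). It was 5.20% ± 1.41 (n = 3) in *Acod1*-/- mice, not past the threshold against wild type HFD (exact permutation p = 0.196, adjusted 0.224).

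**Figure D1:**
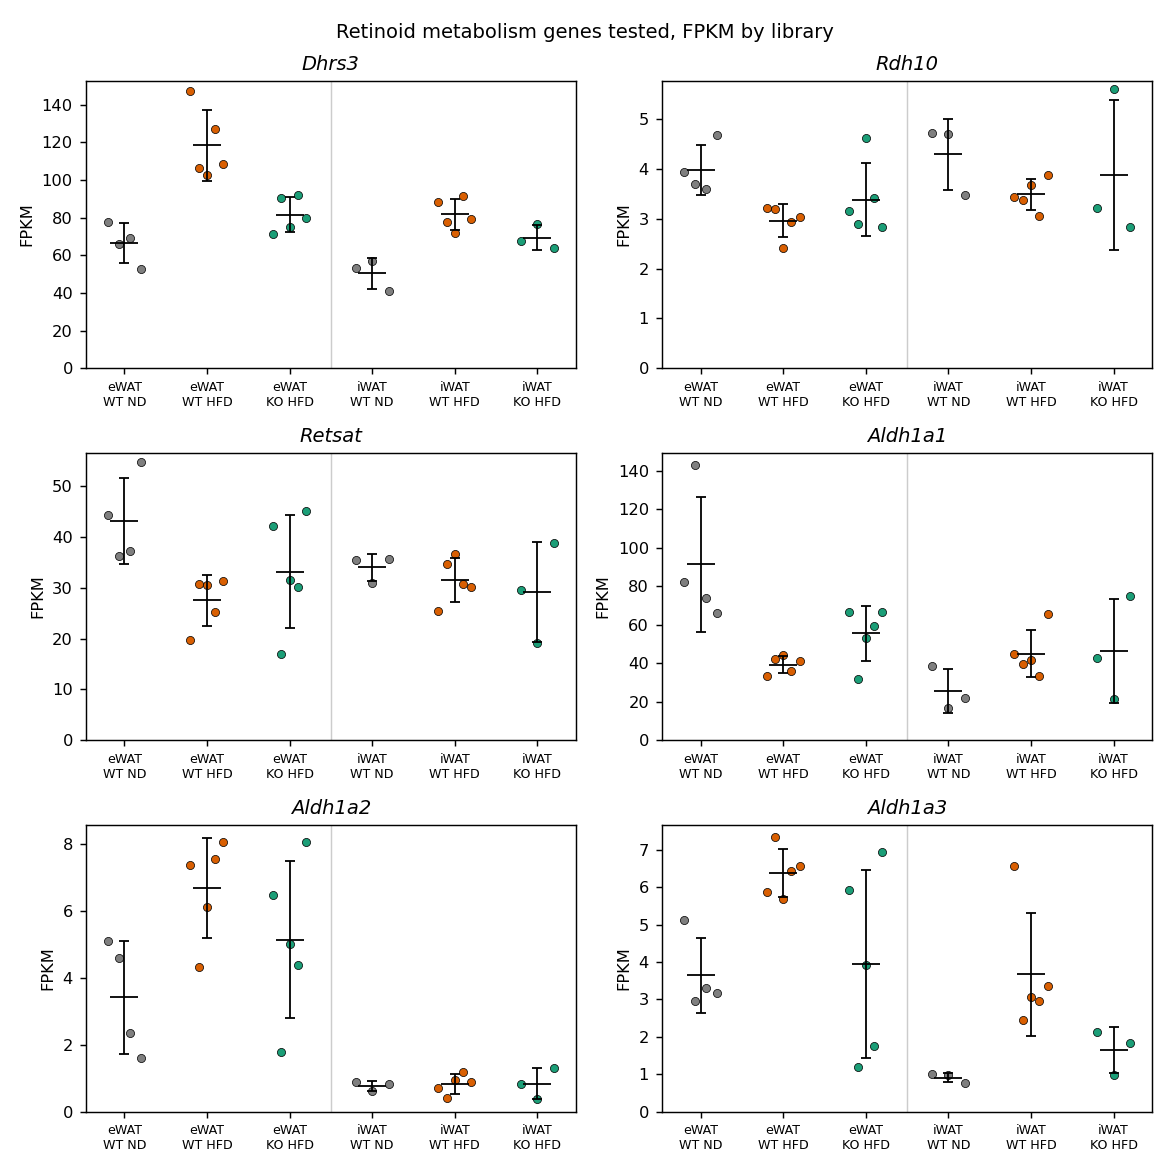
Level in FPKM of the 6 members tested, by library (points) in the 6 groups, with the group mean (bar) and SD (whiskers); WT is wild type and KO is *Acod1*-/-. *Dhrs3* on HFD sits at 102 to 147 FPKM in wild type eWAT, above all other groups, while *Aldh1a1* is highest in eWAT on ND, at 66.0 to 143 FPKM.

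Among the ALDH1A enzymes *Aldh1a1* dominated by level. It measured 82.3, 143, 74.1 and 66.0 FPKM in eWAT of ND-fed mice, and 33.1, 42.1, 44.03, 35.9 and 40.9 in wild type HFD-fed mice. The groups did not overlap, and library 2, the one with the highest epididymis markers, was the highest ND library. *Aldh1a1* fell by 1.16 on the log2 scale (SE 0.21, adjusted p = 0.00123), that is 2.24-fold lower on HFD, and by 0.997 with the series term (adjusted p = 0.0330). *Acod1*-/- libraries on HFD gave 66.7, 31.7, 52.8, 59.5 and 66.5 FPKM, of which 4 were above the highest wild type HFD library and 1, library 2, was below the lowest. The genotype difference was 0.56 ± 0.20 (adjusted p = 0.0801).

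The direction with diet was the opposite in iWAT, where *Aldh1a1* measured 38.5, 16.5 and 21.7 FPKM on ND and 44.6, 39.3, 41.9, 33.1 and 65.3 on HFD. The highest ND library overlapped the HFD range in FPKM, and the closest libraries of the groups were level in TMM-scaled CPM (168.8 on ND and 168.9 on HFD). The rise was 0.99 ± 0.40 (adjusted p = 0.0668). It was 1.76 with the series term (adjusted p = 0.00901), which in iWAT is set by wild type HFD library 5 and *Acod1*-/- library 3. These 2 libraries were the highest of their groups (65.3 and 75.0 FPKM). The call of the fit without this term was lost when iWAT ND library 2 (adjusted p = 0.231) or 3 (0.165) or HFD library 5 (0.128) was left out. The difference between the depots in this diet response was -2.11 ± 0.44 (adjusted p = 0.00183). *Acod1*-/- iWAT gave 42.6, 21.3 and 75.0 FPKM, which spanned the wild type HFD range, at a difference of 0.08 ± 0.38 (adjusted p = 0.945). From the highest group mean in eWAT on ND (91.4 FPKM) to the lowest in iWAT on ND (25.5), each neighbouring pair of groups overlapped. *Aldh1a7*, a close paralog nearby on the same chromosome, could share reads with *Aldh1a1*, and how such reads were counted is not given in the sources used here.

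*Aldh1a2* measured 5.10, 4.58, 2.37 and 1.61 FPKM in eWAT on ND and 7.38, 4.33, 6.11, 7.56 and 8.06 in wild type mice on HFD. A single HFD library lay within the ND range. It rose by 1.04 ± 0.37 (adjusted p = 0.0377), and by 1.53 with the series term (adjusted p = 0.0324). *Acod1*-/- libraries ranged from 1.77 to 8.05 FPKM, across both wild type groups, and the genotype difference was -0.33 ± 0.35 (adjusted p = 0.565). In all 11 iWAT libraries the gene was between 0.383 and 1.31 FPKM, below every eWAT library, and neither diet (0.26 ± 0.45, adjusted p = 0.668) nor genotype (0.04 ± 0.45, adjusted p = 0.979) was called.

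*Aldh1a3* was at 5.13, 2.95, 3.30 and 3.18 FPKM in eWAT on ND and at 5.87, 7.34, 5.69, 6.44 and 6.56 on HFD, with no overlap. Its rise of 0.85 ± 0.39 (adjusted p = 0.0889) stood near the threshold. *Acod1*-/- eWAT was the most spread group for this gene, at 5.92, 1.19, 3.92, 1.75 and 6.95 FPKM, and differed by -0.63 ± 0.36 from wild type HFD (adjusted p = 0.262). In iWAT the gene went from 1.001, 0.971 and 0.771 FPKM on ND to 6.56, 2.46, 3.06, 2.95 and 3.35 on HFD, all above the ND libraries. This rise of 2.17 ± 0.35 on the log2 scale was the largest rise among the members called in iWAT (adjusted p = 0.000885, and 2.22 with the series term, adjusted p = 0.00660). *Acod1*-/- iWAT lay below wild type HFD without overlap, at 2.14, 0.974 and 1.83 FPKM, a difference of -1.13 ± 0.33 (adjusted p = 0.157), where no gene at all was called. The diet response of *Aldh1a3* was smaller in eWAT than in iWAT by 1.29 on the log2 scale (SE 0.54, adjusted p = 0.0949).

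*Aldh1a1* made up 88.9% to 95% of the summed FPKM of the 3 Aldh1a genes in eWAT on ND, 71.4% to 78.9% on HFD and 81.6% to 91.5% in *Acod1*-/- mice on HFD. No wild type HFD library overlapped either of the other groups. Mean shares were 92.5% ± 2.55 (n = 4), 74.8% ± 3.52 (n = 5) and 86.7% ± 4.22 (n = 5). The diet difference was -17.7 percentage points and the genotype difference 11.9, each with an exact permutation p of 0.00794, the smallest possible (adjusted 0.0159). In iWAT the shares were 93.2% ± 2.03 (n = 3), 90.6% ± 3.27 (n = 5) and 94.5% ± 1.31 (n = 3), and neither diet (exact permutation p = 0.286) nor genotype (p = 0.125) passed by the same permutation test. The 2 eWAT comparisons share the wild type HFD libraries, so their differences are not independent of each other.

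**Figure D2:**
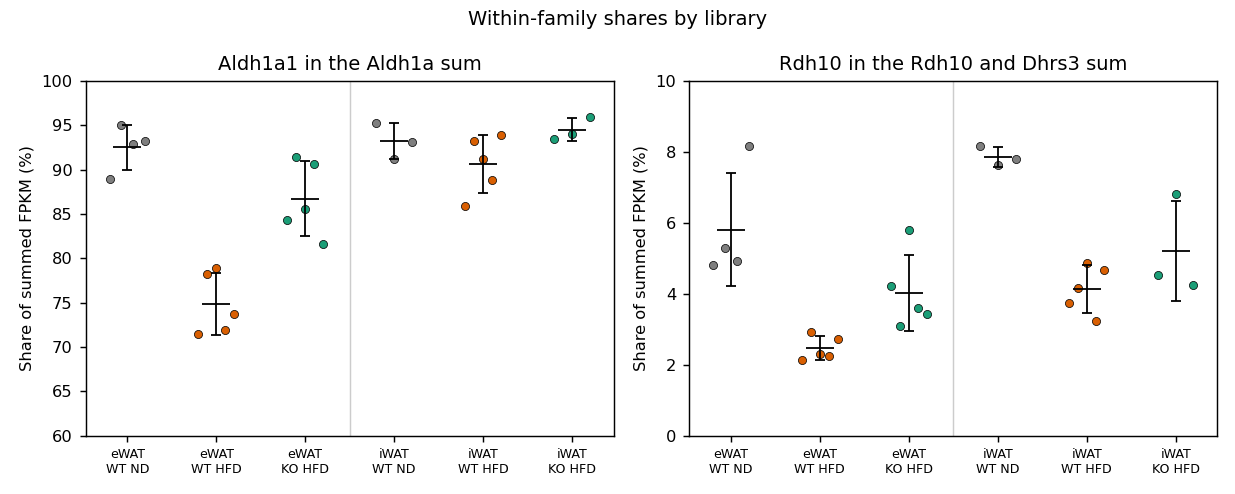
Share of *Aldh1a1* in the summed FPKM of *Aldh1a1*, *Aldh1a2* and *Aldh1a3* (left, axis from 60%) and of *Rdh10* in the sum of *Rdh10* and *Dhrs3* (right), in percent by library, with group mean and SD. In eWAT both shares are lowest in wild type mice on HFD, 71.4% to 78.9% and 2.14% to 2.92%.

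*Retsat*, which saturates retinol and is known as a gene of mature adipocytes, was at 44.3, 36.3, 37.2 and 54.7 FPKM in eWAT on ND and at 19.7, 30.7, 30.6, 25.3 and 31.3 on HFD. The groups did not overlap. It fell by 0.61 on the log2 scale (SE 0.23, adjusted p = 0.0472), a call lost with the series term (-0.29, adjusted p = 0.507). *Acod1*-/- eWAT gave 42.1, 17.0, 31.6, 30.2 and 45.1 FPKM, overlapping both, with 0.33 ± 0.22 against wild type HFD (adjusted p = 0.343). In iWAT its 3 groups had means of 34.1, 31.6 and 29.2 FPKM, and neither comparison was called (diet 0.06 ± 0.22, adjusted p = 0.847). The difference between the depots in the diet response was -0.64 ± 0.34 (adjusted p = 0.183), and -0.87 without the libraries of high epididymis or skin markers (adjusted p = 0.0622). eWAT *Acod1*-/- library 2 was the lowest of its group for *Aldh1a1*, *Aldh1a2*, *Aldh1a3* and *Retsat* in FPKM, and its adipocyte markers, at 43220 CPM, were the highest of the group.

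Of the eWAT diet calls, those of *Aldh1a2* (adjusted p = 0.105), *Aldh1a3* (0.164), *Retsat* (0.159) and *Rdh10* (0.185) were lost without ND library 4, leaving 2 members called. That of *Rdh10* was also lost without HFD library 3 (adjusted p = 0.118), and that of *Aldh1a3* without any one of ND libraries 2 and 3, HFD libraries 2, 3, 4 and 5 or *Acod1*-/- library 3 (at most 0.179).

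For genotype in eWAT, 2 of 6 tested members were called on HFD, *Aldh1a1* higher and *Dhrs3* lower in *Acod1*-/- than in wild type mice, against 19.9% of 14936 genes (9.13% higher and 10.8% lower). In CPM 0 of 9 members had groups that did not overlap, against 2.81% of genes upward and 4.34% downward. Both were between the wild type ND and HFD levels in group mean. In the 8 HFD libraries of 1 header series alone, *Dhrs3* was at -0.44 (adjusted p = 0.0909) and *Aldh1a1* at 0.54 (adjusted p = 0.108). The call of *Dhrs3* was lost when any one of wild type HFD libraries 1 and 4 and *Acod1*-/- libraries 1 and 3 was left out (adjusted p at most 0.114), and that of *Aldh1a1* without ND library 1, HFD library 1, 2 or 4 or *Acod1*-/- library 1, 3, 4 or 5 (at most 0.197). With the libraries of high epididymis or skin markers left out, neither was called (*Dhrs3* -0.36, adjusted p = 0.183, and *Aldh1a1* 0.40, adjusted p = 0.140). *Aldh1a3* was then called lower in *Acod1*-/- mice (-1.37, adjusted p = 0.0144). In eWAT this left out ND library 2, wild type HFD library 5 and *Acod1*-/- libraries 1 and 5. Those *Acod1*-/- libraries were the highest of their group for *Aldh1a3* (5.92 and 6.95 FPKM) and for *Aldh1a1* (66.7 and 66.5 FPKM). The part of epididymis tissue in the changed calls was not tested. Without the filter on low counts *Aldh1a1* was not called (0.53, adjusted p = 0.151). Macrophage markers (9 of 9 lower), progenitor and fibroblast markers (3 of 7 lower, 1639 to 2415 CPM in *Acod1*-/- mice), adipocyte markers (3 of 8 higher) and epididymis markers (1 of 6 higher) moved in the same comparison, and their part in these differences was not tested.

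Against ND-fed wild type mice, 2 of 6 members were called in eWAT of *Acod1*-/- mice on HFD, where 26.5% of genes were (13.5% higher and 13% lower). The groups of 1 of 9 members did not overlap in CPM, as in 8.19% of genes upward and 9.26% downward. *Dhrs3* was 0.43 ± 0.14 higher (adjusted p = 0.0546) and *Aldh1a1* 0.60 lower on the log2 scale (-0.60 ± 0.21, adjusted p = 0.0656). This comparison shares its libraries with the diet and genotype comparisons. *Dhrs3* lost its call without ND library 2 or 4 or *Acod1*-/- library 2, and *Aldh1a1* without ND library 2 or *Acod1*-/- library 2, where it was at -0.34 and -0.48. With the series term neither was called (*Dhrs3* 0.34, adjusted p = 0.320; *Aldh1a1* -0.44, adjusted p = 0.395).

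**Figure D3:**
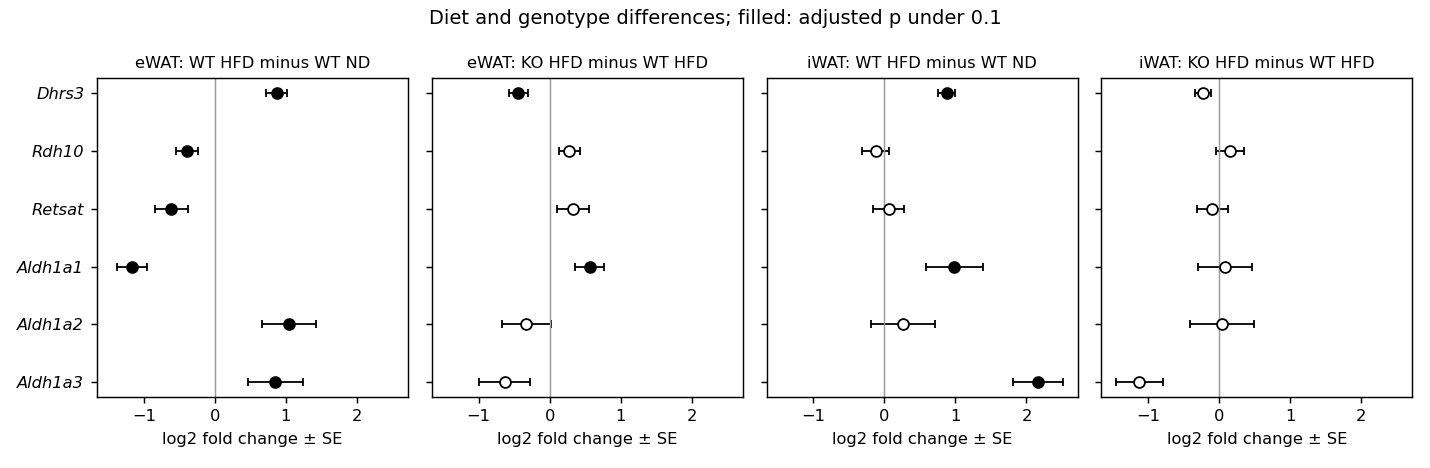
Log2 fold change and its SE of the 6 members tested, for diet (wild type HFD minus ND) and genotype (KO, *Acod1*-/-, minus wild type on HFD) in each depot; filled points have an adjusted p under 0.1. *Aldh1a1* lies at -1.16 with diet in eWAT and at 0.99 in iWAT, while *Dhrs3* lies at 0.87 and 0.88.

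With diet in iWAT, 4 of 7 members tested were called, *Dhrs3*, *Aldh1a3* and *Aldh1a1* higher and *Crabp2* lower, where 50.1% of 14801 genes were called (25.9% higher and 24.2% lower). *Crabp2* passed the filter in iWAT through *Acod1*-/- library 2 (389 reads), which is not part of this comparison. The groups of 4 of 9 members, *Stra6* among them, did not overlap, as in 23% of genes upward and 24.1% downward. For genotype in iWAT 0 of 7 were called, as were 0% of all genes, with 2468 genes at an unadjusted p under 0.05. The groups of 1 of 9 members did not overlap, against 3.66% of genes upward and 4.59% downward. DESeq2's Wald test called 1 member there, *Aldh1a3* (-1.10, adjusted p = 0.0336). Without *Acod1*-/- library 3 edgeR called 2, *Aldh1a3* (-1.21, adjusted p = 0.0865) and *Crabp2*, whose *Acod1*-/- reads all came from library 2, the library of high skin markers. *Crabp2* passed the filter through that library, which is part of this comparison, so its call there does not speak for a group difference. *Acod1*-/- iWAT against ND gave 3 calls of 7, all higher, against 34.6% of genes (18.5% higher and 16.1% lower), and 3 of 9 members had groups apart, against 17.8% of genes upward and 19.1% downward. These were *Dhrs3* (0.65 ± 0.13, adjusted p = 0.00396), *Aldh1a3* (1.04 ± 0.36, adjusted p = 0.0557) and *Aldh1a1* (1.07 ± 0.43, adjusted p = 0.0917). The latter 2 lost their calls without ND library 2 or 3 or *Acod1*-/- library 1 or 3, *Aldh1a3* also without ND library 1 and *Aldh1a1* also without wild type HFD library 1, 2 or 3, so that the count fell to 1 in 4 of the 11 leave-outs. With the series term *Aldh1a3* was not called (1.08, adjusted p = 0.113). With diet in iWAT, progenitor and fibroblast (6 of 7, 672 to 1047 CPM on ND and 1812 to 2813 on HFD), endothelial (5 of 5), macrophage (6 of 9), liver (6 of 6) and adipocyte markers (4 of 8) were called higher. Lymphocyte (5 of 5), skeletal muscle (4 of 4), skin (5 of 5), epithelial (1 of 5) and brown fat markers (3 of 4, 88.2 to 1040 CPM on ND and 25.5 to 54.7 on HFD) were called lower. Skeletal muscle markers were at 6801, 3.04 and 260 CPM in ND libraries 1 to 3 and at 17.5 to 272 on HFD. Skin markers were at 1.58, 2.81 and 215 CPM on ND and 0.883 to 1.80 on HFD. Single ND libraries thus held most of both sums, and ND library 1 was also the highest ND library for *Aldh1a1* (38.5 FPKM). The part of all these markers in the iWAT diet differences was not tested.

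*Stra6*, *Crabp1* and *Crabp2* had few reads. *Stra6*, the retinol receptor, had 8, 23, 17 and 19 reads in the ND libraries of eWAT, 0, 3, 0, 0 and 0 in wild type HFD and 4, 0, 8, 32 and 4 in *Acod1*-/- mice. In iWAT it had 74, 80 and 43 reads on ND, 0, 0, 2, 0 and 3 on HFD and 0 in all 3 *Acod1*-/- libraries. ND libraries thus had more *Stra6* reads than all wild type HFD libraries in both depots. The ND level over wild type HFD, from summed reads and library sizes, was 25.4-fold in eWAT (95% interval 8.31 to 126) and 65.7-fold in iWAT (27.7 to 205), where the intervals cover counting error only. Set against the floor of 3 reads per library, iWAT on ND was at least 19.8-fold higher than *Acod1*-/- iWAT. On ND the iWAT level was 4.49 times that of eWAT (3.39 to 6.02, counting error only). In the fit without a filter *Stra6* was called with diet in eWAT (-4.41 ± 1.33, adjusted p = 0.0311) and iWAT (-5.73 ± 1.004, adjusted p = 0.00116), and in eWAT with genotype (3.95 ± 1.29, adjusted p = 0.0987), where *Acod1*-/- library 4 held 32 of 48 reads. The gene overlaps *Ccdc33* on the other strand and an antisense transcript, and use of strand in counting is not given in the sources used here.

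*Crabp1* was read in 3 of 4 ND libraries of eWAT (140, 116, 0 and 109 reads). It had 1, 0, 0, 0 and 0 reads in wild type HFD eWAT, and 0, 0, 18, 0 and 0 in *Acod1*-/- eWAT. In iWAT it was at 0 in the 3 ND libraries and at most 12 reads elsewhere. Epididymis markers were 2.41, 7777, 65.9 and 2.42 CPM in ND libraries 1 to 4 of eWAT. The part of epididymis or other tissue in the *Crabp1* reads was not tested. In the fit without a filter the fall with diet in eWAT was called (-7.82 ± 1.81, adjusted p = 0.00694), a value that depends on the prior count. By summed reads the ratio of ND to HFD was 414, from 1 read on HFD, with a counting interval of 73.9 to 16414.

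*Crabp2* reads came largely from single libraries. They were 5, 212, 9 and 5 in eWAT on ND, 5, 0, 0, 0 and 16 on HFD and 11, 0, 0, 6 and 54 in *Acod1*-/- mice. In iWAT they were 1, 12 and 115 on ND, 0, 3, 0, 1 and 1 on HFD and 0, 389 and 0 in *Acod1*-/- mice. The libraries with 389, 212 and 115 reads were those with the most reads of *Krt14*, an epithelial keratin, within their groups, at 13478, 380 and 1831. The gene passed the filter in iWAT through the library with 389 reads, and its diet call there (-5.14 ± 2.08, adjusted p = 0.0683) was lost without ND library 3 (-2.32, adjusted p = 0.466) and without HFD library 1, 3, 4 or 5. In eWAT the library with the most *Crabp2* reads of each group also had its highest epididymis markers. These were 7777 CPM in ND library 2, 116.5 in wild type HFD library 5 and 1067 in *Acod1*-/- library 5. HFD library 5 and *Acod1*-/- library 5 held 125 and 60 *Krt14* reads, fewer than library 4 of each group (143 and 64). The part of skin, epithelium and epididymis in these values was not tested.

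**Figure D4:**
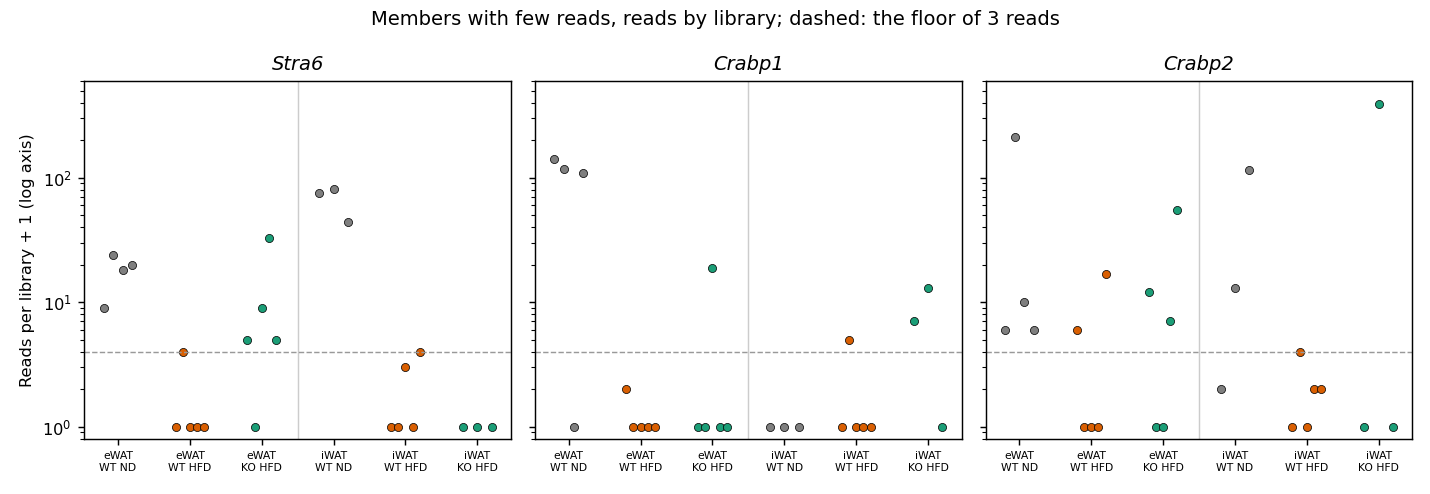
Reads per library plus 1, on a log axis, of *Stra6*, *Crabp1* and *Crabp2* in the 6 groups (KO, *Acod1*-/-); the dashed line marks 3 reads. *Stra6* is at 8 to 80 reads in ND libraries and at 0 to 3 in wild type HFD libraries, while the highest *Crabp2* points, 389 and 212 reads, are single libraries of their groups.

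Between depots of ND-fed wild type mice, 4 of 6 members tested were called, all higher in eWAT, where 31.7% of 15034 genes were called (17.5% higher in eWAT and 14.2% lower). Of 9 members 5 had depots that did not overlap, against 19% and 16.9% of genes, and 1 of the 5 was *Stra6*, lower in eWAT. *Aldh1a2* was 2.17 ± 0.47 higher on the log2 scale (adjusted p = 0.00201), *Aldh1a3* 2.06 ± 0.44 (adjusted p = 0.00185) and *Aldh1a1* 1.90 ± 0.35 (adjusted p = 0.000521). *Dhrs3* was 0.47 ± 0.14 higher (adjusted p = 0.0205), a call lost without iWAT ND library 3 (adjusted p = 0.114) and without the libraries of high epididymis or skin markers (0.127). On HFD in wild type mice 2 of 6 were called against 18.6% of genes (10.8% higher in eWAT and 7.75% lower, with depots apart for 3 of 9 members, against 7.04% and 5.12% of genes), *Aldh1a2* (2.98 ± 0.39, adjusted p = 6.71e-05) and *Dhrs3* (0.50 ± 0.12, adjusted p = 0.00859). In *Acod1*-/- mice 1 of 6 was called against 3.81% of genes (2.01% higher in eWAT and 1.8% lower, with depots apart for 1 of 9, against 3.39% and 2.53% of genes), *Aldh1a2* (2.59 ± 0.47, adjusted p = 0.00405, and 1.81 without the libraries of high epididymis or skin markers, adjusted p = 0.124). *Aldh1a2* was thus higher in eWAT in all 3 comparisons. Summed mesothelial markers were also higher in eWAT (43.7 to 174 CPM) than in iWAT (0.341 to 10.4 CPM), and their part in the level of *Aldh1a2* was not tested.

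The test of a diet response that differs between depots called 2 of 6 members, *Aldh1a1* and *Aldh1a3*, against 29% of 15034 genes (14% higher and 15% lower). *Aldh1a1* was called in each of the 25 leave-outs, while *Aldh1a3* kept its call only in the 9 that left out eWAT ND library 2, eWAT *Acod1*-/- library 1, 2, 4 or 5, iWAT HFD library 2 or 4 or iWAT *Acod1*-/- library 1 or 2. A genotype difference that differs between depots was called for 0 of 6 members and for 0.00665% of genes, with 1524 genes at an unadjusted p under 0.05.

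The wider pathway was read from 44 other retinoid genes. With diet in eWAT 34 were tested, and 10 were called higher and 11 lower, 61.8% of them against 51.8% of all genes. Of the binding and transport genes 4 of 6 rose, among them *Fabp5*, a fatty acid and retinoic acid carrier (1.84 ± 0.25, adjusted p = 0.000319), while *Rbp7* fell by 1.56 (adjusted p = 0.00395). *Ttr*, also among the 4, is given with liver markers further on. *Cyp26b1*, which degrades retinoic acid, was at 1.76, 2.05, 1.21 and 1.56 FPKM on ND and at 0.446, 0.369, 0.459, 0.483 and 0.217 on HFD, all below the ND libraries, and fell by 2.01 (SE 0.40, adjusted p = 0.00205). *Ces1d*, a retinyl and acylglycerol ester hydrolase, fell by 1.83 (adjusted p = 0.000876), *Nrip1*, a retinoic acid-responsive corepressor, by 0.81 (adjusted p = 0.00135), while *Rdh16*, a retinol dehydrogenase, was at -3.29 ± 0.63 (adjusted p = 0.00160). *Rarres2*, which encodes chemerin, rose by 1.02 (adjusted p = 0.00499) and *Adh4* by 2.55 (adjusted p = 0.000506). Of 6 receptors 1 was called higher and 2 lower.

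In the genotype comparison of eWAT, 7 of 34 were called higher and 3 lower in *Acod1*-/- mice, 29.4% against 19.9% of all genes. *Ces1d* (1.26 ± 0.30, adjusted p = 0.0178), *Nrip1* (0.76 ± 0.14, adjusted p = 0.0110), *Rbp7* (1.13 ± 0.34, adjusted p = 0.0450), *Lipe* (0.75 ± 0.23, adjusted p = 0.0481) and *Dhrs4* (0.41 ± 0.12, adjusted p = 0.0377) were higher. *Dhrs9* (-2.82 ± 1.04, adjusted p = 0.0915) and *Stra6l* (-2.31 ± 0.86, adjusted p = 0.0940) were among the lower ones, and 0 of 6 receptors were called. The comparison shares the wild type HFD libraries with that of diet, so opposite signs in the 2 are not independent.

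With diet in iWAT, 36 were tested, of which 13 were called higher and 5 lower (50% against 50.1% of all genes). *Fabp5* (1.79 ± 0.33, adjusted p = 0.00175) and *Rarres2* (0.89 ± 0.15, adjusted p = 0.000992) rose, while *Rdh12* (-2.66 ± 0.41, adjusted p = 0.000632), *Ces1d* (-0.73 ± 0.17, adjusted p = 0.00537), *Rxrb* (-0.56 ± 0.12, adjusted p = 0.00448), *Rdh1* (-4.69 ± 1.91, adjusted p = 0.0694) and *Rdh13* (-0.38 ± 0.17, adjusted p = 0.0912) fell. *Ttr*, the plasma carrier of the RBP4 complex, *Rdh7* and *Aldh8a1* also rose, from means of 0.0213, 0 and 0 FPKM to 45.4, 7.002 and 0.545. In eWAT *Ttr* rose from a mean of 0.139 FPKM to 20.0 (adjusted p = 0.00426). Liver markers (6 genes, chosen after their values were seen) went with them, at 10.4 to 36.2 CPM in ND libraries and 68.0 to 1108 in wild type HFD libraries, and all 6 were called higher with diet in both depots. Their part in these 3 genes, and in the rise of *Adh4* in eWAT, was not tested. For genotype in iWAT 0 of 36 were called.

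In ND-fed mice 7 of 37 tested were called higher in eWAT than in iWAT and 4 lower (29.7% against 31.7% of all genes). The plasma retinol carrier gene *Rbp4* (1.10 ± 0.36, adjusted p = 0.0304), *Rbp7* (1.30 ± 0.37, adjusted p = 0.0129), *Adh4* and *Adh5* were among those higher in eWAT, and *Adh7*, *Rdh12*, *Rxrb* and *Rara* were higher in iWAT.

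**Figure D5:**
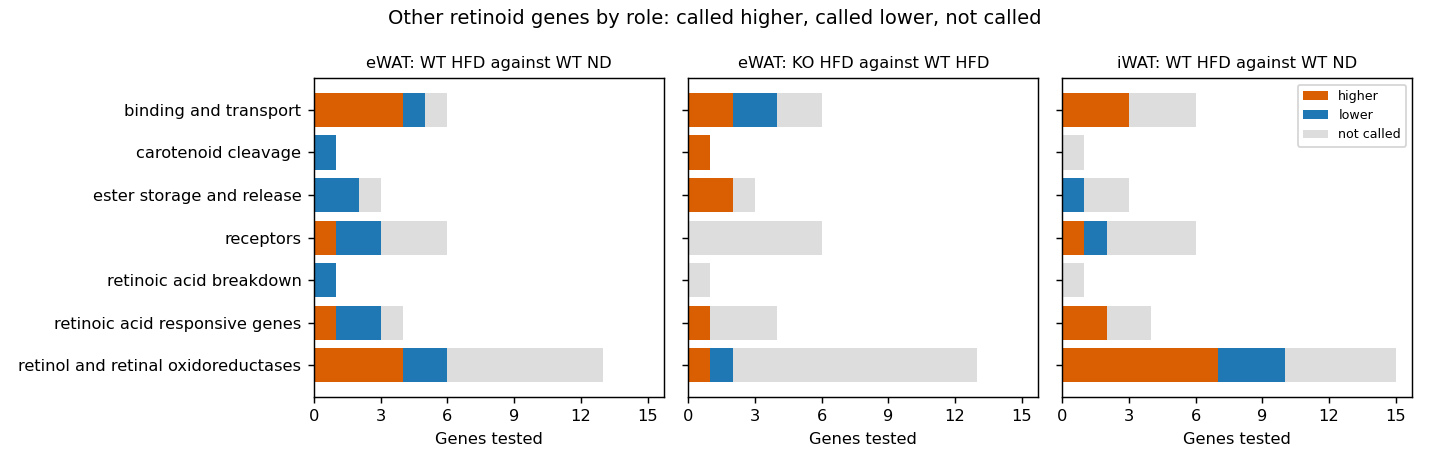
Number of other retinoid genes tested, by role, called higher (orange), called lower (blue) or not called (grey), for diet in eWAT, genotype in eWAT (KO, *Acod1*-/-) and diet in iWAT. In eWAT 10 genes were called higher and 11 lower with diet, and 7 higher and 3 lower in *Acod1*-/- mice.

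Across the 25 libraries, genes most alike each member by Pearson's r of log2 CPM were *Tubb6* (0.955), *Selenom* (0.942) and *Rhoc* (0.938) for *Dhrs3* and *Prrg3* (0.932), *Pdxdc1* (0.921) and *Tctn2* (0.896) for *Aldh1a1*. For *Aldh1a2* they were *Tcf21* (0.913) and *Cadps* (0.909), and for *Aldh1a3* 2310022B05Rik (0.890), *Numbl* (0.883) and *Ear2* (0.876). *Gpam* (0.811), *Gm31305* (0.799) and *Sdf4* (0.783) were nearest to *Retsat*, and C920006O11Rik (0.774), *Rchy1* (0.769) and *Wdr4* (0.740) to *Rdh10*. Between members the highest r was 0.685, of *Aldh1a2* and *Aldh1a3*, and the lowest -0.52, of *Aldh1a2* and *Rdh10*. These values describe libraries that share depot, diet and genotype groups.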

How the data were processed

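RNA of eWAT and iWAT was sequenced from directional libraries. The authors trimmed reads with cutadapt, dropped those under 18 bp, removed contaminants and aligned with STAR 2.4.2a to GRCm38 with GENCODE annotation. Their tests ran in R 4.1.0. The program and strand setting of counting are not given in the sources used here. The deposited values, per the file headers, are raw read counts per gene and the authors' FPKM, and FPKM was recomputed from counts, length and total to within 0.0005. Rows that name no gene held 8.48% to 13.4% of reads and were left out. Gene IDs were joined to symbols for 54723 of 54752.

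Counts were tested with edgeR 4.0.16 (quasi-likelihood, TMM, mean of at least 1 CPM) in R 4.3.3 with limma 3.58.1, per depot for diet and genotype and over all 25 libraries for depots and interactions, with Benjamini-Hochberg adjustment over all genes and calls at an adjusted p under 0.1. Shares were compared by exact permutation tests enumerated in Python 3.11.15 with numpy 2.4.6, adjusted over 8 tests. The share of *Crabp2* among the Crabp genes was undefined in 7 libraries and was not tested. DESeq2 1.42.0, other scalings and filters, a replicate block, a term for the header series and leaving out libraries were alternatives. Leaving out the 6 libraries of high epididymis markers or *Krt14*, and the liver and skin lists, were chosen after seeing the data. Named genes were all 9 members, at most 5 of the other retinoid genes per direction by adjusted p in the diet, genotype and ND depot comparisons, and the 3 genes most alike each member. Some genes that this rule names are not reported here. The members and lists were chosen with earlier results of these data known. Intervals on reads are exact binomial intervals from scipy 1.17.1 and cover counting error only. The tests were run first on simulated data.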

Additional observations from a re-analysis of the deposited data

Results flagged for a closer look

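In 36 groups of members and libraries, a single library lay far from the others of its group 9 times. Chance gives about 1 in 20, but not where all other libraries of a group are at 0, since a single read then suffices. This was so for *Stra6* in eWAT wild type HFD and for *Crabp1* in its 3 groups given here, so the number of such libraries is no measure of excess. *Aldh1a3* was at 5.13 FPKM in eWAT ND library 1 and at 6.56 FPKM in iWAT wild type HFD library 1. *Stra6* was at 0.011 FPKM in eWAT wild type HFD library 2 and at 0.147 FPKM in eWAT *Acod1*-/- library 4. *Crabp1* was at 0.032 FPKM in eWAT wild type HFD library 1, at 0.593 FPKM in eWAT *Acod1*-/- library 3 and at 0.12 FPKM in iWAT wild type HFD library 2. *Crabp2* was at 3.19 FPKM in eWAT ND library 2 and at 0.892 FPKM in eWAT *Acod1*-/- library 5, the libraries with the highest epididymis markers of their groups.

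The diet response differed between eWAT and iWAT by the test of the difference itself for *Aldh1a1* (-2.11 on the log2 scale) and *Aldh1a3* (-1.29).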

How the results depend on the processing

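Diet calls of *Dhrs3* in both depots, of *Aldh1a1* in eWAT and of *Aldh1a3* in iWAT, and the diet by depot call of *Aldh1a1*, held under every alternative run. DESeq2's size factors in edgeR changed none of 44 member results. Members called for genotype in eWAT (2) numbered 1 at an adjusted p under 0.05, 0 with the replicate block (*Dhrs3* adjusted p = 0.107, *Aldh1a1* 0.133), 1 without the libraries of high epididymis or skin markers and 1 in header series 1 alone. *Acod1*-/- HFD against ND in eWAT (2) gave 0 at 0.05, without a filter, with the block, with the series term and without those libraries, and 1 with only the groups compared. In iWAT, diet (4) gave 2 at 0.05, genotype (0) 1 with DESeq2 and 1 in series 1 alone, and *Acod1*-/- against ND (3) 1 at 0.05. Without a filter the eWAT counts for diet and genotype were 6 and 2, but included *Stra6*, and for diet *Crabp1*, in place of members lost. The depot comparison on HFD gave 1 of 2 in wild type mice at 1 CPM in every library. In *Acod1*-/- mice it gave 0 (of 1) under that filter, with only the groups compared and without the libraries named, and 2 with DESeq2. Diet by depot (2) gave 1 at 0.05. Without single libraries the counts ranged 2 to 6 (eWAT diet), 0 to 2 (eWAT genotype), 0 to 2 (eWAT *Acod1*-/- against ND), 2 to 4, 0 to 2 and 1 to 3 (the same in iWAT), 1 to 2 (depot in *Acod1*-/- mice) and 1 to 2 (diet by depot). The 2 of iWAT genotype include *Crabp2*, which passed the filter through *Acod1*-/- library 2. The *Aldh1a1* share difference in iWAT genotype ranged 2.69 to 4.68 percentage points.

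Uncalled values changed sign as follows, and the cause was not tested. *Aldh1a2* in iWAT diet was -0.084 with the block. In iWAT genotype *Aldh1a1* was -0.16 with the series term, -0.30 in series 1 alone and -0.46 to 0.44 without single libraries, *Aldh1a2* was -0.15, -0.42 and -0.44 to 0.41, *Retsat* was 0.16 without the libraries named and -0.36 to 0.16 without single ones, and *Rdh10* was -0.17 and -0.17 to 0.36. *Retsat* in iWAT diet ranged -0.030 to 0.14. *Dhrs3* diet by depot was -0.0030 without a filter, -0.058 with the block and -0.049 to 0.12 without single libraries. The labels do not say whether a number marks a mouse or batch, and not every same-numbered pair of libraries deviated together, so they were not paired. Their deviations correlated at -0.30 to 0.31 in 22 pairs within depots and -0.09 to 0.49 in 11 pairs between depots, over 0.1 in 12 and 5. A library's best match had its own number in 9 and 7 of these pairs, and in 4 of 5 between the eWAT HFD genotypes, a hint from the data and not the design. Library numbers limit precision, and *Stra6*, *Crabp1* and *Crabp2* were near the floor of 3 reads.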
